A study of Rattus norvegicus with 28 samples.

Results

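Slc17a7, Camk2a, Grin1 and Grin2b, genes of excitatory glutamate transmission, were read in 2 rat brain regions, the medial prefrontal cortex (mPFC) and the nucleus accumbens (NAc). The genes were taken by Ensembl ID, as ENSRNOG00000020650, ENSRNOG00000018712, ENSRNOG00000011726 and ENSRNOG00000008766 in that order. All 4 were among the 15635 genes of the deposited count table. The symbols come from the list that defines the set, because the table gives IDs only and the reference gene table at hand paired 0 of its 15635 IDs with a symbol. The rule for the set uses no measured value, although the members were chosen with earlier results of these data known.

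Male Sprague-Dawley rats, labelled young adult with a weight range of 200 to 250 g, all had 10 days of extended access to cocaine for self-administration. They then received a lentivirus into the NAc or the mPFC on both sides, carrying the histone variant H3.3 either as the wild-type protein (lenti-pCDH-H3.3WT) or with alanine in place of the glutamine that can carry dopamine (lenti-pCDH-H3.3Q5A). The tissue was profiled by sequencing of polyadenylated RNA after 30 days of viral expression and abstinence and a test of cocaine-cue seeking. Each of the 4 combinations of region and virus had 7 libraries, and replicate numbers are those of the titles. No group lacked cocaine or virus. The promoter of the vector, the share of cells it reached and whether a library is 1 animal are not given in the sources used here, so a p-value here reflects only how much these libraries differ, which may be technical.

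Glutamate is loaded into synaptic vesicles by vesicular transporters, and Slc17a7 encodes VGLUT1, the transporter typical of cortical excitatory neurons. At the postsynaptic membrane, NMDA receptors are tetramers of obligatory GluN1 subunits, encoded by Grin1, with GluN2 subunits such as GluN2B, encoded by Grin2b. Calcium entry through them activates the kinase CaMKII, whose alpha subunit is encoded by Camk2a. The NAc consists mainly of GABAergic projection neurons that receive glutamate input from the cortex and other regions, so they carry receptors and CaMKII but are not known as a source of VGLUT1 transcripts.

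The promoter windows of Slc17a7, the gene that differed most between the regions, and of Grin1, which did not pass the test between them, are shown side by side. RefSeq sequence on the build GRCr8, from 250 bases before to 50 after the annotated start, was matched by symbol for 3 of the 4 genes, without an entry for Grin2b. The counts were made on rn6, so these coordinates belong to the sequences only. Slc17a7 lies at chr1:104785955-104786254 on the + strand and Grin1 at chr3:28528705-28529004 on the - strand. Capitals mark the GC box GGGCGG, searched on both strands with overlapping matches counted.
Slc17a7: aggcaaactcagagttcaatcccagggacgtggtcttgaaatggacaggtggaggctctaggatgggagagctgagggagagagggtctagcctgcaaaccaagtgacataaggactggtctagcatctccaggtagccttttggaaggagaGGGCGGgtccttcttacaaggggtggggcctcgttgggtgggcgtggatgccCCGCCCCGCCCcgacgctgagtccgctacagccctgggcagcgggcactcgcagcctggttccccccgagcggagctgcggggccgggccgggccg
Grin1: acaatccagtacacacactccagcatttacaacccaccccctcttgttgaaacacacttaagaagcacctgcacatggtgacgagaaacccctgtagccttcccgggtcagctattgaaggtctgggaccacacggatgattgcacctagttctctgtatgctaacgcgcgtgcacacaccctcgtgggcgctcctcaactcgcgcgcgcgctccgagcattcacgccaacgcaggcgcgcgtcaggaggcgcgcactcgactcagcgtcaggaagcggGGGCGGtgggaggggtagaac
The window of Slc17a7 held 3 matches and 17 CpG dinucleotides, and that of Grin1 held 1 match and 25 CpG dinucleotides. Of the 33469 promoter windows of the same length, 33.1% held at least 1 match and the median window held 7 CpG dinucleotides. No measurement of these libraries bears on a match.

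Levels are CPM, counts scaled by library depth and by TMM factors, which adjust for differences in RNA composition between libraries. They are not corrected for transcript length, so no gene's level is compared with another's. Libraries held between 15448673 counts, in NAc H3.3WT replicate 17, and 51714324 counts, in NAc H3.3Q5A replicate 22. The lowest count of a member in any library was 362, for Grin2b in NAc H3.3WT replicate 17, and the highest was 86881, for Slc17a7 in mPFC H3.3Q5A replicate 4. NAc H3.3WT replicate 17 and NAc H3.3Q5A replicate 3 stood apart from the other NAc libraries over all genes: on the first principal component of 10403 genes with a mean of at least 10 CPM, the 4 genes left out, they had loadings of 0.84 and 0.39 and the other 12 lay between -0.18 and -0.037. This component held 41.8% of the variance in NAc, and results that rest on these libraries are given with and without them where both were computed. They also had the lowest TMM factors of all 28 libraries, 0.94 for H3.3WT replicate 17 and 0.86 for H3.3Q5A replicate 3. Among mPFC libraries, H3.3Q5A replicate 34 had the highest level of transcripts typical of NAc, with a mean of 1.82 log2 CPM over 258 genes far higher in NAc, against a group median of 0.78.

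**Figure D1:**
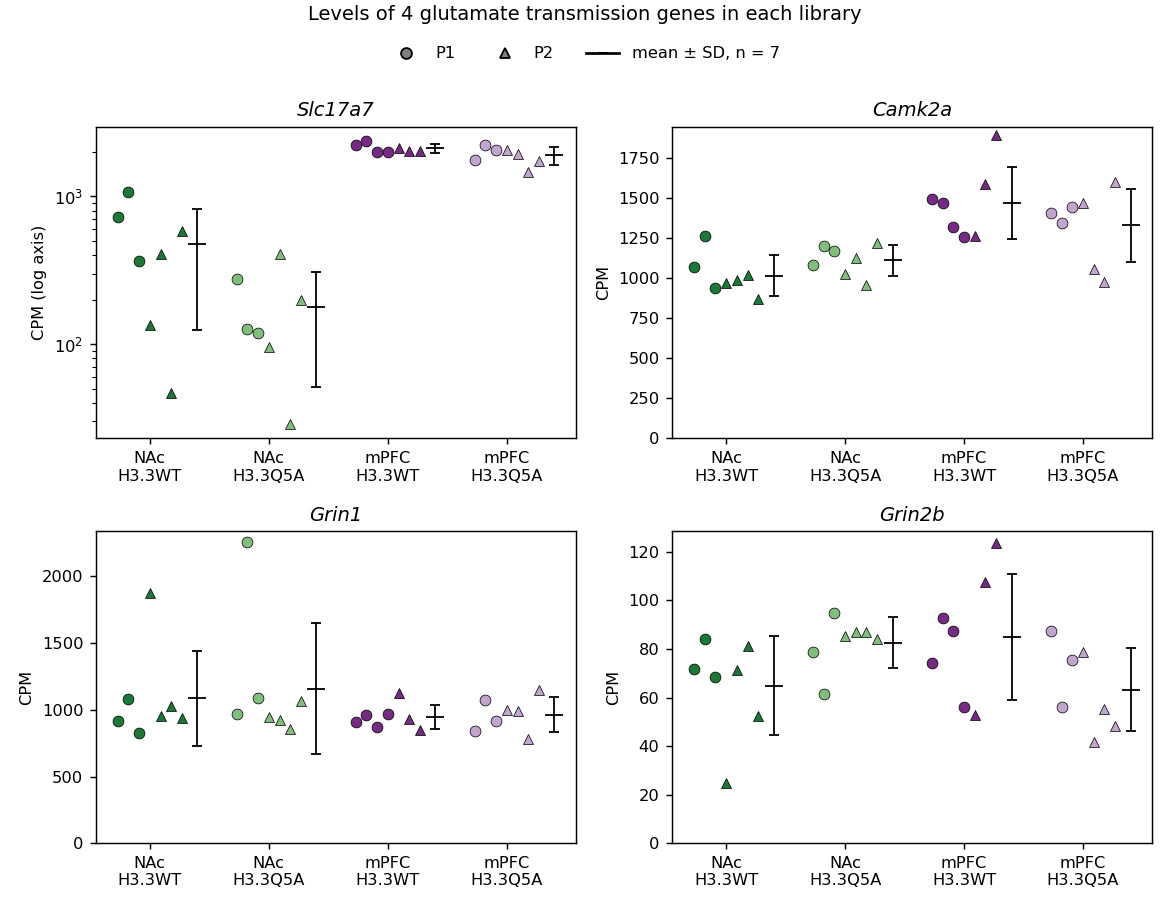
Levels in CPM of Slc17a7 (log axis), Camk2a, Grin1 and Grin2b in each of 28 libraries, by region and virus. Circles are libraries marked P1 and triangles P2 in the titles, and the bars beside them give the mean and SD of 7 libraries. Slc17a7 spans 28.7 to 1064 CPM in NAc and 1470 to 2381 CPM in mPFC, and 1 library in each NAc group is far above the others in Grin1.

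Slc17a7 was high in every mPFC library and low to intermediate in NAc. In mPFC H3.3WT it lay between 1982 and 2381 CPM with a median of 2038 CPM, and in mPFC H3.3Q5A between 1470 and 2214 CPM with a median of 1933 CPM. In NAc H3.3WT it lay between 46.6 and 1064 CPM with a median of 406 CPM, and in NAc H3.3Q5A between 28.7 and 407 CPM with a median of 127 CPM. No NAc library reached the lowest mPFC library of the same virus, so the groups did not overlap. The same held in that direction for 12.7% of 15635 genes with H3.3WT and 14.6% with H3.3Q5A, and in the other direction for 12% and 14.1%.

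The fitted log2 fold change of Slc17a7 for NAc over mPFC was -2.18 (SE 0.46, 95% confidence interval -3.12 to -1.23) with H3.3WT, an edgeR quasi-likelihood test with adjusted p = 0.000279. This is a level 4.52-fold lower in NAc. With H3.3Q5A it was -3.39 (SE 0.48, interval -4.38 to -2.40, edgeR adjusted p = 1.38e-06), or 10.5-fold lower. Between libraries of the same mark the difference with H3.3WT was -1.58 for P1 and -2.82 for P2. With H3.3Q5A these values were -3.54 and -3.31. In bulk tissue, fewer cells of a type and less RNA per cell cannot be told apart.

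Camk2a was also lower in NAc, by a much smaller factor. It lay between 867 and 1262 CPM in NAc H3.3WT (median 984 CPM) and between 956 and 1221 CPM in NAc H3.3Q5A (median 1127 CPM). In mPFC it lay between 1257 and 1893 CPM with H3.3WT (median 1469 CPM) and between 977 and 1600 CPM with H3.3Q5A (median 1406 CPM). With H3.3WT, 6 of 7 NAc libraries were below the lowest mPFC library, and with H3.3Q5A 1 of 7 was, so both pairs of groups overlapped. The log2 fold change was -0.53 (SE 0.11, edgeR adjusted p = 0.000176) with H3.3WT, or 1.44-fold lower in NAc, and -0.26 (SE 0.11, edgeR adjusted p = 0.0426) with H3.3Q5A, or 1.19-fold lower. With H3.3WT it was -0.35 among P1 and -0.71 among P2 libraries. The call with H3.3Q5A ended without any 1 of 9 libraries, NAc H3.3Q5A replicates 2, 18, 19 and 22 and mPFC H3.3Q5A replicates 2, 4, 5, 14 and 37, at edgeR adjusted p-values from 0.0516 to 0.107. It also ended within P1 libraries (-0.29, edgeR adjusted p = 0.0580) and P2 libraries (-0.25, edgeR adjusted p = 0.251).

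The NMDA receptor subunits did not pass the test between regions. Grin1 had medians of 952 CPM in NAc H3.3WT, 970.1 CPM in NAc H3.3Q5A, 932 CPM in mPFC H3.3WT and 993 CPM in mPFC H3.3Q5A. Its log2 fold change for NAc over mPFC was 0.21 (SE 0.18, interval -0.17 to 0.59, edgeR adjusted p = 0.347) with H3.3WT and 0.26 (SE 0.18, interval -0.12 to 0.64, edgeR adjusted p = 0.237) with H3.3Q5A. Without NAc H3.3WT replicate 17 the first value was 0.022, and without NAc H3.3Q5A replicate 3 the second was 0.0063. The medians of the 4 groups thus lay close together, and 1 library in each NAc group carried the fitted excess.

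Grin2b had medians of 71.3 CPM in NAc H3.3WT, 85.4 CPM in NAc H3.3Q5A, 87.4 CPM in mPFC H3.3WT and 56.3 CPM in mPFC H3.3Q5A. For NAc over mPFC its log2 fold change was -0.38 (SE 0.21, interval -0.82 to 0.056, edgeR adjusted p = 0.133) with H3.3WT and 0.39 (SE 0.21, interval -0.046 to 0.83, edgeR adjusted p = 0.122) with H3.3Q5A. The sign differed between the viruses while neither value passed the test. With H3.3WT the value was -0.054 among P1 and -0.71 among P2 libraries, and with H3.3Q5A 0.096 and 0.61. With H3.3WT it was also -0.25 without NAc H3.3WT replicate 17 and -0.24 without mPFC H3.3WT replicate 36. In the fit with H3.3Q5A, Grin2b passed under limma voom with quality weights (0.39, adjusted p = 0.0255), and with H3.3WT as well (-0.38, adjusted p = 0.0170).

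Of the 4 genes, 2 were called lower and 0 higher in NAc with either virus. Over all genes at an adjusted p under 0.05 with H3.3WT, 27.1% were called lower, 26.2% higher and 53.3% in either direction. With H3.3Q5A these shares were 27.7%, 27.7% and 55.4%. Calls between regions were thus common, and 2 of 4 is near the share called in either direction. Slc17a7 was also lower by more than 1 on the log2 scale. With H3.3WT, 6.45% of all 15635 genes were called lower and 5.57% called higher by that much or more, and with H3.3Q5A 7.81% and 5.85%. Among the 4 genes the median log2 fold change under H3.3WT was -0.45 and under H3.3Q5A 0.0010, and that of all genes was -0.0098 and 0.0030.

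**Figure D2:**
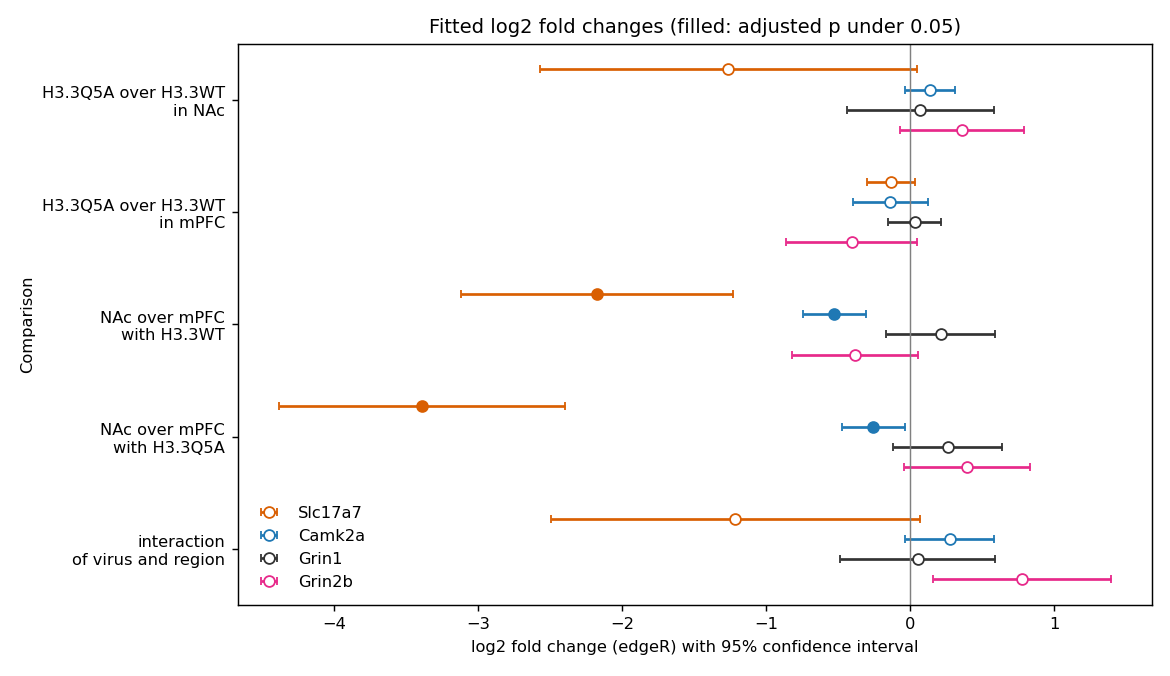
Fitted log2 fold changes of the 4 genes with their 95% confidence intervals (horizontal axis) in 5 comparisons (vertical axis), from edgeR fits over all genes. Filled points have an adjusted p under 0.05, which holds for Slc17a7 and Camk2a in both comparisons of the regions, from -3.39 to -0.26, and for none of the other points.

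The virus comparisons ask whether replacing the modifiable glutamine of H3.3 goes with other levels of these genes. In NAc, Slc17a7 had the largest difference of the 4 and Grin2b the next, and neither passed the test. Slc17a7 averaged 476 CPM with an SD of 351 over 7 libraries carrying H3.3WT, and 179 CPM with an SD of 127 over 7 carrying H3.3Q5A. The lowest value of all NAc libraries, 28.7 CPM, was in H3.3Q5A replicate 22 and the next, 46.6 CPM, in H3.3WT replicate 21, so the ranges lay over each other although 6 of 7 H3.3Q5A libraries were below the H3.3WT mean of log2 CPM. The log2 fold change of H3.3Q5A over H3.3WT was -1.27 (SE 0.61, interval -2.57 to 0.042, edgeR adjusted p = 0.648, with an unadjusted value of 0.0569). It was -2.05 among P1 libraries, where the 3 H3.3WT libraries lay between 363 and 1064 CPM and the 3 H3.3Q5A libraries between 119 and 276 CPM. Among P2 libraries it was -0.69, with 4 libraries of each virus.

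The level of Slc17a7 in NAc moved with that of other genes typical of mPFC. A region score was taken for each library: the average log2 CPM of 258 genes far higher in NAc, less that of 272 genes far higher in mPFC, with the 4 genes left out. In NAc, Slc17a7 and this score had a Pearson r of -0.85 (permutation p = 0.00012, adjusted p = 0.00096 over 8 tests) and a Spearman rho of -0.86 (permutation p = 0.00011, adjusted p = 0.00088) over 14 libraries. The r was -0.98 among 6 P1 libraries (exact permutation p = 0.00417) and -0.84 among 8 P2 libraries (exact permutation p = 0.0152). Without the 2 libraries farthest from the median score it was -0.77, and without NAc H3.3WT replicate 17 and H3.3Q5A replicate 3 it was -0.89. After each virus group mean was subtracted it was -0.82 (permutation, adjusted p = 0.00224). The score genes were picked by their difference between the regions in these same libraries, and Slc17a7 differed between the regions too. How closely other genes higher in mPFC follow the score was not computed, so the p-values do not set Slc17a7 apart. NAc H3.3WT replicate 12 had both the lowest score, 2.098, and the most Slc17a7, at 50.3% of the mean of mPFC H3.3WT. NAc H3.3Q5A replicate 22, at 1.52% of the mean of mPFC H3.3Q5A, had a score of 3.76, and the highest score, 4.35, belonged to NAc H3.3Q5A replicate 3.

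In NAc H3.3WT the genes higher in mPFC had an average of 0.75 ± 0.52 log2 CPM (SD, n = 7), from 0.0030 to 1.51, and in NAc H3.3Q5A of 0.35 ± 0.35, from 0.13 to 1.06. With the region score as an added term, the log2 fold change of Slc17a7 for the virus in NAc was -0.092 in place of -1.27 (SE 0.40, edgeR adjusted p = 0.941). Over all genes, those at an edgeR unadjusted p under 0.05 went from 1200 to 601 with this term. The score went with Slc17a7 in these same libraries, and the part of mPFC transcripts in the difference of Slc17a7 was not tested.

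**Figure D3:**
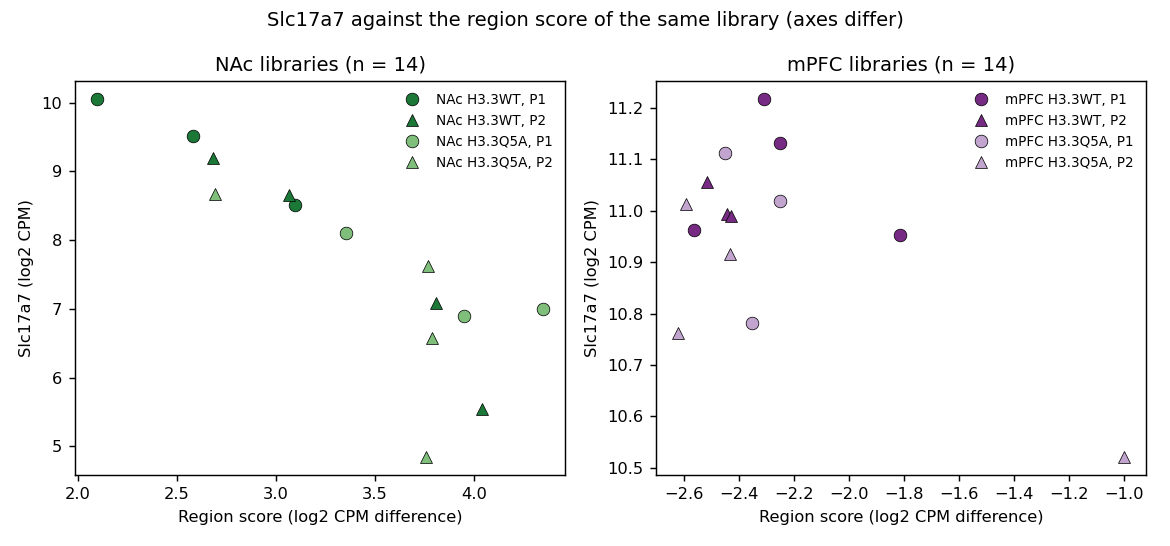
Slc17a7 (vertical axis, log2 CPM) against the region score (horizontal axis, log2 CPM difference) of the same library, for 14 NAc and 14 mPFC libraries, with axes that differ between the panels. In NAc the 8 libraries with the highest scores have less Slc17a7 than the other 6, and in mPFC H3.3Q5A replicate 34 lies alone at a score of -1.002.

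In NAc the other members had smaller fitted differences between the viruses. Grin2b averaged 64.8 ± 20.4 CPM (SD, n = 7) among H3.3WT libraries, between 24.8 and 84.0 CPM, and 82.6 ± 10.5 CPM among H3.3Q5A libraries, between 61.5 and 94.9 CPM. All 7 H3.3Q5A libraries were above the H3.3WT mean of log2 CPM, and 5 were above the highest H3.3WT library. Its log2 fold change was 0.36 (SE 0.20, interval -0.074 to 0.79, edgeR adjusted p = 0.668), 0.21 without NAc H3.3WT replicate 17, and 0.28 without that library and H3.3Q5A replicate 3 (SE 0.09, edgeR adjusted p = 0.445). It was 0.064 among P1 and 0.57 among P2 libraries.

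Camk2a in NAc averaged 1015 ± 126 CPM under H3.3WT and 1111 ± 95.9 CPM under H3.3Q5A. The log2 fold change was 0.13 (SE 0.08, edgeR adjusted p = 0.668). Its interval of -0.041 to 0.31 is a level between 0.97 and 1.24 times that with H3.3WT. Grin1 had a log2 fold change of 0.070 (SE 0.24, interval -0.44 to 0.58, edgeR adjusted p = 0.947). That value was -0.16 without H3.3Q5A replicate 3 and 0.26 without H3.3WT replicate 17.

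In mPFC, Slc17a7 averaged 2115 ± 148 CPM (SD, n = 7) under H3.3WT and 1893 ± 255 CPM under H3.3Q5A. The H3.3Q5A libraries extended lower, with 4 of 7 below the lowest H3.3WT library. The log2 fold change was -0.14 (SE 0.08, interval -0.30 to 0.029, edgeR adjusted p = 0.629). It was -0.098 without H3.3Q5A replicate 34, in which Slc17a7 was lowest, at 1470 CPM.

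Grin2b in mPFC averaged 84.8 ± 25.9 CPM under H3.3WT and 63.3 ± 17.1 CPM under H3.3Q5A. H3.3WT replicates 35 and 36 were highest, at 107 and 123 CPM, and H3.3Q5A replicate 15 was lowest, at 41.8 CPM, with the groups overlapping. The log2 fold change was -0.41 (SE 0.21, interval -0.86 to 0.044, edgeR adjusted p = 0.626). It was -0.080 among P1 and -0.74 among P2 libraries, and -0.26 without H3.3WT replicate 36. Camk2a had a log2 fold change of -0.14 (SE 0.12, interval -0.40 to 0.12) and Grin1 of 0.028 (SE 0.09, interval -0.15 to 0.21), with edgeR adjusted p-values of 0.699 and 0.923. Camk2a was at -0.054 without H3.3WT replicate 36, -0.080 without H3.3Q5A replicate 34 and -0.089 without H3.3Q5A replicate 15.

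With edgeR on the 14 libraries of a region and the mark as a term, 0 of the 4 genes were called for the virus in NAc and 0 in mPFC. In these fits 0 of the 4 had an unadjusted p under 0.05 in either region. Over all genes, 0% of 15315 were called in NAc and 0% of 15485 in mPFC, with 1200 and 1221 at an unadjusted p under 0.05. DESeq2 called 9 and 8 of all genes, and limma voom 57 and 0. The virus groups overlapped for all 4 genes in both regions. They did not overlap for 0.0588% of genes that were higher with H3.3Q5A and 0.118% that were lower in NAc, and for 0.0323% and 0.0775% in mPFC. DESeq2 and limma voom with quality weights also called 0 of the 4 in each region. Some alternatives gave unadjusted p-values under 0.05, such as 0.00687 for Slc17a7 in NAc with edgeR on all 28 libraries. In NAc limma voom gave 0.00893 for Slc17a7 and 0.00693 for Grin2b, and in mPFC 0.0236 for Grin2b. Under every alternative 0 of the 4 were called. In the edgeR fits by region the median log2 fold change of the 4 was 0.10 in NAc and -0.14 in mPFC, and that of all genes was 0.0054 and 0.0023.

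Whether the virus effect differed between the regions was tested directly. For Grin2b the virus effect in NAc exceeded that in mPFC by 0.77 in log2 units (SE 0.30, interval 0.15 to 1.39), with an edgeR unadjusted p of 0.0163 and an adjusted p of 0.904. It was 0.15 among P1 libraries, 1.32 among P2 libraries and 0.68 without NAc H3.3WT replicate 17 and H3.3Q5A replicate 3. The interaction of Slc17a7 was -1.21 (SE 0.62, edgeR adjusted p = 0.904), that of Camk2a 0.27 (SE 0.15, edgeR adjusted p = 0.904) and that of Grin1 0.049 (SE 0.26, edgeR adjusted p = 0.994). Among P1 libraries Slc17a7 had -1.95 and Camk2a 0.060, and among P2 libraries -0.50 and 0.47. Of the 4 genes 0 were called, as were 0% of 15635 genes. At an unadjusted p under 0.05, edgeR gave 1 of the 4 and 822 of all genes. DESeq2 called 0 of the 4 and 0 of all genes, and limma voom with quality weights 0 of the 4 and 3 higher and 6 lower of 15635.

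The 4 genes varied to different degrees between libraries of a group. The SD of log2 CPM of Slc17a7 was 1.56 in NAc H3.3WT and 1.24 in NAc H3.3Q5A, at the 99.94 and 99.85 percentile of 10407 genes with a mean of at least 10 CPM, whose median SDs were 0.20 and 0.14. In mPFC its SD was 0.099 under H3.3WT and 0.20 under H3.3Q5A, at the 27.7 and 69.5 percentile. The highest NAc H3.3WT library had 22.8 times the Slc17a7 level of the lowest, while the same ratio was 1.20 in mPFC H3.3WT. Grin2b had SDs of 0.61 in NAc H3.3WT and 0.20 in NAc H3.3Q5A, at the 96.7 and 72.0 percentile, and of 0.46 and 0.40 in mPFC, at the 96.5 and 94.3 percentile. Grin1 was at the 86.3 and 96.2 percentile in NAc and the 50.4 and 67.0 percentile in mPFC. In each NAc group 1 library lay far from the others in Grin1. H3.3WT replicate 17 was at 10.87 log2 CPM (next 10.08) and H3.3Q5A replicate 3 at 11.14 (next 10.09). For Grin2b, NAc H3.3WT replicate 17 was at 4.64 log2 CPM (next 5.72). The SDs were not computed without these libraries. Camk2a was near the median gene in NAc, with SDs of 0.17 and 0.13. In mPFC its SDs were 0.21 with H3.3WT and 0.26 with H3.3Q5A, at the 77.45 and 83.3 percentile.

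The pair of NMDA receptor subunits was also compared within each library, as the log2 CPM of Grin2b minus that of Grin1, which library scaling does not move. Its absolute size depends on transcript lengths, so only differences between libraries are read. In NAc, 11 of 14 libraries lay between -3.74 and -3.29. H3.3WT replicate 23 was at -4.16, H3.3Q5A replicate 3 at -5.20 and H3.3WT replicate 17 at -6.23. In the last of these Grin1 was at 1873 CPM and Grin2b at 24.8 CPM, the highest and the lowest of its group, and in H3.3Q5A replicate 3 they were at 2254 and 61.5 CPM, again the highest and the lowest. In mPFC the values were spread more evenly, from -4.58 in H3.3Q5A replicate 37 to -2.78 in H3.3WT replicate 36.

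The difference between groups was smaller than this spread. Grin2b minus Grin1 averaged -4.11 ± 0.96 (SD, n = 7) in NAc H3.3WT, -3.74 ± 0.65 in NAc H3.3Q5A, -3.53 ± 0.57 in mPFC H3.3WT and -3.96 ± 0.51 in mPFC H3.3Q5A. Two-sided exact permutation tests gave p = 0.465 for the virus in NAc, 0.156 for the virus in mPFC, 0.193 for the regions with H3.3WT and 0.494 for the regions with H3.3Q5A, with adjusted p-values of 0.310 to 0.564 over 8 tests. Without NAc H3.3WT replicate 17 and H3.3Q5A replicate 3, the difference for the virus in NAc was 0.25 (exact permutation p = 0.0152, adjusted p = 0.0404), an alternative chosen after the values were seen. It was 0.012 without H3.3WT replicate 17 alone and 0.61 without H3.3Q5A replicate 3 alone. Among P1 libraries it was -0.46, and among P2 libraries 0.99.

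**Figure D4:**
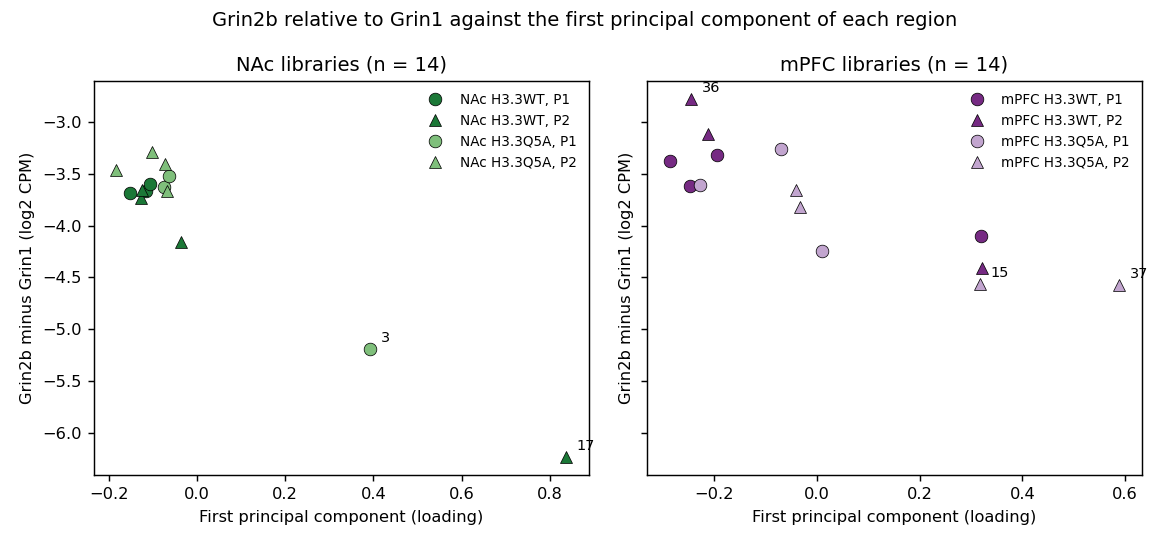
Grin2b minus Grin1 (vertical axis, log2 CPM) against the loading of each library on the first principal component of its region (horizontal axis, no unit), computed without the 4 genes. Numbers are replicates. In NAc 2 libraries lie apart at -5.20 and -6.23, and in mPFC the 4 libraries with loadings over 0.3 lie between -4.58 and -4.11, below 9 of the other 10.

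The same measure moved with the library-wide component. That component is built from genes of these same libraries and was added after the values were seen. How many other genes follow it as closely was not computed, so the p-values below do not set Grin1 or Grin2b apart. In mPFC, where the first component held 29.9% of the variance, the Pearson r with Grin2b minus Grin1 was -0.86 (permutation p = 0.00012, adjusted p = 0.00144 over 12 tests) and the Spearman rho -0.81 (permutation p = 0.00093, adjusted p = 0.00666) over 14 libraries. It was -0.68 among P1 and -0.94 among P2 libraries, and -0.80 without the 2 libraries farthest on the component. For Grin2b alone r was -0.81 (permutation p = 0.00026, adjusted p = 0.00156, rho = -0.79, permutation p = 0.00111), and -0.76 among P1 and -0.85 among P2 libraries. For Grin1 it was 0.66 (permutation p = 0.00992, rho = 0.60, permutation p = 0.0265), and 0.35 without the 2 farthest libraries. In NAc the r of Grin2b minus Grin1 with the component over all 14 libraries was -0.97 (permutation p = 0.00077, adjusted p = 0.00308, rho = -0.34, permutation p = 0.235), and -0.97 among P1 and -0.97 among P2 libraries, each of which holds 1 of the 2 libraries that lie apart. Over the other 12 it was -0.33 (permutation p = 0.301, rho = 0.049), so the relation in NAc rests on those 2. The count of genes with a pattern like that of Grin1 or Grin2b also rests largely on them. After group means were subtracted, 169 of 10403 genes had an r over 0.9 with Grin1 over the 28 libraries, and 9 without NAc H3.3WT replicate 17 and H3.3Q5A replicate 3. For Grin2b these counts were 174 and 32, for Slc17a7 16 and 23, and for Camk2a 0 and 1.

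Slc17a7 and Camk2a were compared within each library in the same way. Slc17a7 minus Camk2a was -1.61 ± 1.52 (SD, n = 7) in NAc H3.3WT and -3.01 ± 1.16 in NAc H3.3Q5A, and 0.54 ± 0.23 and 0.52 ± 0.25 in mPFC with H3.3WT and H3.3Q5A. The regions did not overlap in either virus. The differences of -2.15 and -3.53 each had an exact permutation p = 0.000583, the smallest that 3432 divisions of 14 libraries allow, and an adjusted p = 0.00233. Slc17a7 thus fell further from mPFC to NAc than Camk2a did. For the virus the difference was -1.40 in NAc (exact permutation p = 0.0752, adjusted p = 0.200) and -0.017 in mPFC (exact permutation p = 0.895). The NAc value was -1.87 without H3.3WT replicate 21 (exact permutation, adjusted p = 0.0295), the H3.3WT library with the least Slc17a7. The other 13 of 14 single leave-outs did not pass, with exact permutation adjusted p-values up to 0.312.

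Members were also compared in pairs between the libraries of a region. Of 12 pairs, 6 in each region, 0 had an adjusted permutation p under 0.05, with Pearson r from -0.59 to 0.69. The highest was Camk2a with Grin2b in mPFC (r = 0.69, permutation p = 0.00573, adjusted p = 0.0688, rho = 0.56, permutation p = 0.0423). It was 0.85 without H3.3Q5A replicate 37 (adjusted p = 0.00216) and 0.71 without H3.3Q5A replicate 34 (adjusted p = 0.0337). The other 12 of 14 single leave-outs did not pass, with r down to 0.57 and permutation adjusted p-values up to 0.340. The r was 0.55 among P1 and 0.72 among P2 libraries, and 0.58 without the 2 libraries farthest in Camk2a. The pair was at r = 0.41 in NAc, and at 0.70 without H3.3WT replicate 17 and H3.3Q5A replicate 3.

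Grin1 and Grin2b had negative coefficients, at r = -0.59 in NAc (permutation p = 0.0659, rho = -0.13, permutation p = 0.647) and -0.52 in mPFC (permutation p = 0.0557, rho = -0.50, permutation p = 0.0682). In NAc, r was 0.39 without H3.3WT replicate 17 and H3.3Q5A replicate 3, so the negative value rests on them. In mPFC it was -0.71 among P1, -0.45 among P2 libraries and -0.70 without the 2 libraries farthest in Grin1. It was -0.74 without H3.3Q5A replicate 34 (permutation, adjusted p = 0.0337). The other 13 of 14 single leave-outs did not pass, with r up to -0.43 and permutation adjusted p-values up to 0.343.

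In mPFC the region score went with Grin1 (r = -0.68, permutation p = 0.00239, adjusted p = 0.00956, rho = -0.82, permutation p = 0.0006). The r was -0.54 among P1 and -0.73 among P2 libraries, and -0.61 without the 2 libraries farthest on the score (adjusted p = 0.103). It was -0.58 without H3.3Q5A replicate 34 (adjusted p = 0.135). In NAc the same pair had the opposite sign, at r = 0.49 (permutation p = 0.0725, adjusted p = 0.116, rho = 0.54, adjusted p = 0.126). There r was 0.14 without H3.3WT replicate 17 and H3.3Q5A replicate 3. The score genes come from these same libraries, and how closely other genes follow the score was not computed. These p-values therefore do not set Grin1 apart. The r of Slc17a7 with the score in mPFC, -0.57 (permutation p = 0.0566, rho = -0.0066, permutation p = 0.988), was 0.16 without H3.3Q5A replicate 34, on which it rests. It was -0.077 among P1 and -0.83 among P2 libraries.

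For each member the gene with the most similar pattern over 28 libraries was sought among 10403 genes, after group means were subtracted, as a description of the highest r. For Slc17a7 it was ENSRNOG00000028417 at r = 0.99, with an r of 0.99 within NAc and 0.50 within mPFC. Its mean level was 8.75 CPM in NAc and 75.7 CPM in mPFC. For Camk2a it was ENSRNOG00000058842 at r = 0.89, with 1341 ± 157 CPM in NAc and 1669 ± 232 CPM in mPFC. For Grin1 it was ENSRNOG00000032705 at r = 0.98, and at 0.90 without NAc H3.3WT replicate 17 and H3.3Q5A replicate 3. For Grin2b it was ENSRNOG00000013884 at r = 0.99, and at 0.97 without those libraries. These are the libraries of the tests above, and no symbol was paired with these IDs.

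Other genes of glutamate signalling, the markers of cell types and the H3.3 genes were listed by symbol and are not analysed here. The tissue labels could therefore be set only against Slc17a7, which was above every NAc library in all 14 mPFC libraries.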

How the data were processed

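Polyadenylated RNA of 28 libraries was sequenced, 7 for each combination of region and virus. Extraction used Trizol with RNeasy Micro columns, and the TruSeq RNA V2 kit, without strand information, gave the libraries, per the labels' protocols. The authors deposited counts per Ensembl gene as whole numbers without normalization. HISAT2 2.1.0, featureCounts 2.0.1 and DESeq2 1.6.3 and the build rn6 are named per the submitters' processing notes, with no role given. Every one of the 15635 genes reaches 10 counts in at least 14 libraries, so the table had been filtered before deposit.

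Groups were read from the titles. The mark P1 or P2 in them, whose meaning the labels do not state, entered each model as a term; each group holds 3 or 4 libraries of each mark. Virus effects were tested on the 14 libraries of a region, and region effects and the interaction on all 28, with the quasi-likelihood test of edgeR 4.0.16 in R 4.3.3 (TMM, filterByExpr, Benjamini-Hochberg over all genes tested, threshold 0.05). SE is the log2 fold change divided by the square root of F. Log2 CPM used a prior count of 2. NAc-high and mPFC-high genes passed an adjusted p of 0.05 and a log2 fold change of 2 between regions over both viruses. Within-library differences were tested by exact two-sided permutation, and correlations with 100000 resamples, or exactly with 8 libraries or fewer. DESeq2 1.42.0 and limma 3.58.1 were alternatives. The edgeR procedure was tested on simulated data, whose outcome is not given here, so no smallest detectable fold is stated for the virus. The members and lists were chosen with earlier results of these data known. All 4 members were named, and for each the gene most like it at 10 CPM or more. Alternatives were other normalizations and tools, no filter, no mark term, each mark alone, the region score as a term, fits on other sets of libraries and each library left out. Leaving out NAc H3.3WT replicate 17 and H3.3Q5A replicate 3 together was chosen after seeing the data. The principal component analysis was added after the values were seen. Replicates of a group all differed by more than sampling noise, with a chi-square per degree of freedom of at least 7.49 in 84 pairs.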

Additional observations from a re-analysis of the deposited data

Results flagged for a closer look

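In groups of 7 libraries, a library was singled out where its gap to the nearest other library exceeded 0.568 of the whole range of the group, the limit of Dixon's test. Of 24 sets of 7 libraries examined, for the 4 genes and the 2 within-library differences, 5 held such a library. Chance singles out about 1 in 20 such sets, and the 5 are not independent, since they come from the same 2 NAc libraries. Grin1 was at 10.87 log2 CPM in NAc H3.3WT replicate 17, with the next library of its group at 10.08. Grin1 was at 11.14 log2 CPM in NAc H3.3Q5A replicate 3, with the next at 10.09. Grin2b was at 4.64 log2 CPM in NAc H3.3WT replicate 17, with the next at 5.72. Grin2b minus Grin1 was -6.23 in NAc H3.3WT replicate 17, with the next at -4.16, and -5.20 in NAc H3.3Q5A replicate 3, with the next at -3.66.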

How the results depend on the processing

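The direction and the side of the threshold of Slc17a7 and Camk2a between the regions with H3.3WT were kept under every alternative run, and those of Slc17a7 with H3.3Q5A as well. The cause of the changes below was not tested. Camk2a between the regions with H3.3Q5A was no longer called among P1 libraries (-0.29), among P2 libraries (-0.25) and in a fit of the 14 libraries of both groups alone (-0.25), and lay between -0.32 and -0.20 with single libraries left out. The number of the 4 genes called there was 1 among P1 and 1 among P2 libraries, and 1 to 2 with single libraries left out. Grin2b between the regions passed the threshold under limma voom with quality weights (-0.38 with H3.3WT and 0.39 with H3.3Q5A), and with H3.3Q5A also in the fit of 14 libraries (0.40) and without NAc H3.3WT replicate 17 and H3.3Q5A replicate 3 (0.44). The sign of Grin1 turned among P2 libraries for the virus in NAc (-0.35), for the regions with H3.3Q5A (-0.062) and for the interaction (-0.38), with the region score as a term for the virus in NAc (-0.22), and without the 2 NAc libraries for the interaction (-0.015). With single libraries left out these Grin1 values ran from -0.16 to 0.26 for the virus in NAc, from -0.012 to 0.079 in mPFC and from -0.18 to 0.23 for the interaction. Camk2a for the virus in mPFC was 0.018 among P1 libraries. Grin2b minus Grin1 turned among P1 libraries for the virus in NAc (-0.46) and for the regions with H3.3Q5A (-0.41), and passed without the 2 NAc libraries for the virus in NAc (0.25). Slc17a7 minus Camk2a between the regions was -1.36 and -3.35 among P1 and -2.69 and -3.66 among P2 libraries, with exact adjusted p-values of 0.114 to 0.267 from so few libraries. For the virus it was 0.11 among P2 libraries in mPFC, and with single libraries left out from -0.089 to 0.050 in mPFC and from -1.87 to -1.06 in NAc. The correlations among members past the threshold were 2 in NAc without the 2 NAc libraries and 0 to 2 in mPFC with single libraries left out. Those with the region score were 0 in NAc among P2 libraries, and 0 in mPFC among P1 libraries, among P2 libraries and without the 2 farthest libraries, and 0 to 1 with single ones left out. The r of Grin1 and Grin2b in NAc was 0.39 without the 2 farthest libraries, which are the 2 NAc libraries named above. The r of Slc17a7 with the region score in mPFC was 0.43 without the 2 farthest libraries and -0.70 to 0.16 with single ones left out. No paired analysis was possible because groups compared share fewer than 2 replicate numbers. P1 and P2 libraries alone leave 3 or 4 libraries a group. Grin2b in NAc H3.3WT replicate 17, at 362 counts, has the least depth behind it.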
